A study of Mus musculus with 8 samples.

Results

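Viral entry and replication restriction factors are interferon-induced proteins that act on the virus itself rather than on signalling. The set described here holds 8 genes, Rsad2, Mx1, Mx2, Bst2, Ifitm1, Ifitm2, Ifitm3 and Ly6e. Every probe whose platform gene symbol is one of these was taken, which gave 10 of the 25697 probes on the array. Ifitm1 has 3 probes and the other genes have 1 each. All 8 genes were matched among the 16593 genes the platform annotation names.

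The arrays are Illumina mouse bead arrays hybridised with total RNA from bulk cultures of L929, fibroblasts of the C3H mouse strain kept as an established line. There were 4 groups of 2 independent replicates. L929IRF8 cells, which carry ectopic IRF8, and L929 cells without ectopic IRF8 were each given IFNβ at 1000 U/ml for 4 h or left untreated. Both lines were grown in DMEM with foetal calf serum. The labels do not say how IRF8 was introduced, whether L929IRF8 is a clone, or whether the L929 cells carry an empty vector. They name 2 replicates a group as independent and do not say whether these were separate cultures on separate days, so p-values measure the spread between these arrays.

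Interferon beta binds a shared cell-surface receptor whose kinases activate the transcription factor complex ISGF3, which binds interferon-stimulated response elements (ISREs) in promoters. The restriction factors it induces act at different steps of a viral cycle. The Ifitm proteins and Ly6e sit in membranes and act on entry, Mx proteins are dynamin-like GTPases that act on incoming or replicating viral nucleoproteins, viperin (Rsad2) makes a nucleotide that terminates viral RNA chains, and tetherin (Bst2) holds budding particles at the cell surface. In fibroblasts some of these genes are expressed before any infection and others are near silent until interferon arrives.

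The promoters were searched for letters that interferon-activated factors bind. RefSeq promoter sequences, 250 bases before to 50 bases after a transcript start in GRCm38.p6, were found for 5 of the 8 genes. They come from the C57BL/6J reference and not from L929 cells. The ISRE core GAAANNGAAA was searched on both strands, and it was present in 3.44% of the 32851 promoters in the table. It was found in 4 of the 5 member promoters. Rsad2 had 1 match on the reverse strand, at base -120 from the start, and Ifitm2 had 1 match at -46. Bst2 had 2 matches that overlap each other, at -130 and -124. Ifitm3 had 2 matches just after the start, at 3 and 20, and at least 2 matches were found in 0.225% of all promoters. Ifitm1 had none in its 300 bases. The gamma-activated site TTCNNNGAA, present in 8.30% of promoters, was found in Bst2, where its last bases overlap the first ISRE core by 3 bases, and in Ifitm3, where it overlaps the start of the second core likewise. The stretches below are shown because they set members with large, intermediate, small and unmeasured responses side by side. They read 5′ to 3′ on the gene's strand, with the ISRE cores in capitals, and a match is a match of letters only.
Rsad2 (chr12:26456528-26456607, minus strand): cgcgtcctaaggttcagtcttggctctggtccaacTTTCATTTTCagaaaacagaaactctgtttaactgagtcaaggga
Bst2 (chr8:71537555-71537634, minus strand): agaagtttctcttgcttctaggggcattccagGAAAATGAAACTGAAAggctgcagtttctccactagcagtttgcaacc
Ifitm3 (chr7:141010716-141010795, minus strand): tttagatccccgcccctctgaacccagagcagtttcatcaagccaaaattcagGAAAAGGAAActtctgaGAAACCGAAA
Ifitm2 (chr7:140955963-140956042, minus strand): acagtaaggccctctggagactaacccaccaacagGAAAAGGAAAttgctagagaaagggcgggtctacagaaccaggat
Ifitm1 (chr7:140967995-140968074, plus strand): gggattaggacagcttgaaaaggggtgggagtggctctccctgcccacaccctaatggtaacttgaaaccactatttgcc

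The values are linear intensities, already background-subtracted and quantile normalized when deposited. The size of the lowest value on any array, 23.7 units, was taken as a background bound. A probe at or under it on both arrays of a group has only a limit there, so folds against it are given as "at least". Arrays of the same group correlated at 0.989 to 0.992 (Pearson, log2 scale, all probes). Of 10 fibroblast markers on the array, 7 exceeded the bound on all 8 arrays, while Thy1, Dcn and Lum were under it throughout. Of 6 myeloid markers 1 exceeded it on all arrays, and of the 3 lymphoid, 3 epithelial and 3 endothelial markers none did. The summed myeloid signal lay between 140.3 and 180.5 units in IFNβ-treated L929IRF8, 108.3 and 187.9 in IFNβ-treated L929, 124.3 and 194.6 in untreated L929IRF8 and 108.4 and 152.7 in untreated L929. The single Irf8 probe read -2.3 to 7.8 units on the 8 arrays. Whether it lies in the introduced sequence is not known, so the line labels could not be checked with it.

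With IFNβ, 5 of the 8 members rose in L929IRF8 and the same 5 rose in L929. These were Rsad2, Mx1, Mx2, Bst2 and Ifitm3, and 0 members fell. Across all probes, 0.864% were called higher in L929IRF8 and 0.996% in L929, and 0.21% and 0.28% lower (limma, adjusted p under 0.05 over all 25697 probes). Ly6e and Ifitm2 had higher values on both treated arrays in both lines but did not pass, and Ifitm1 was not above background in any group. Of the members, 7 exceeded the bound in the mean of the 8 arrays. In each line their 2 treated arrays lay above the 2 untreated arrays in 7 of 7. That separation was seen in 12.7% of the 11411 probes above the bound in L929IRF8 and in 13.7% in L929. Rsad2, Mx1 and Mx2 passed that filter only through their treated arrays, so their separation is largely built into it. Bst2, Ly6e, Ifitm3 and Ifitm2 were above the bound on every untreated array as well. The median log2 change over these 7 was 2.92 in L929IRF8 and 3.34 in L929, against -0.07 and -0.08 over all probes above the bound. That median is the change of Bst2, which is the middle value because Rsad2, Mx1 and Mx2 count above it. It does not depend on the exact size of their changes, but it does depend on counting them. Members above the bound untreated ran from 0.32 to 2.92 in L929IRF8 and from 0.38 to 3.34 in L929.

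**Figure D1:**
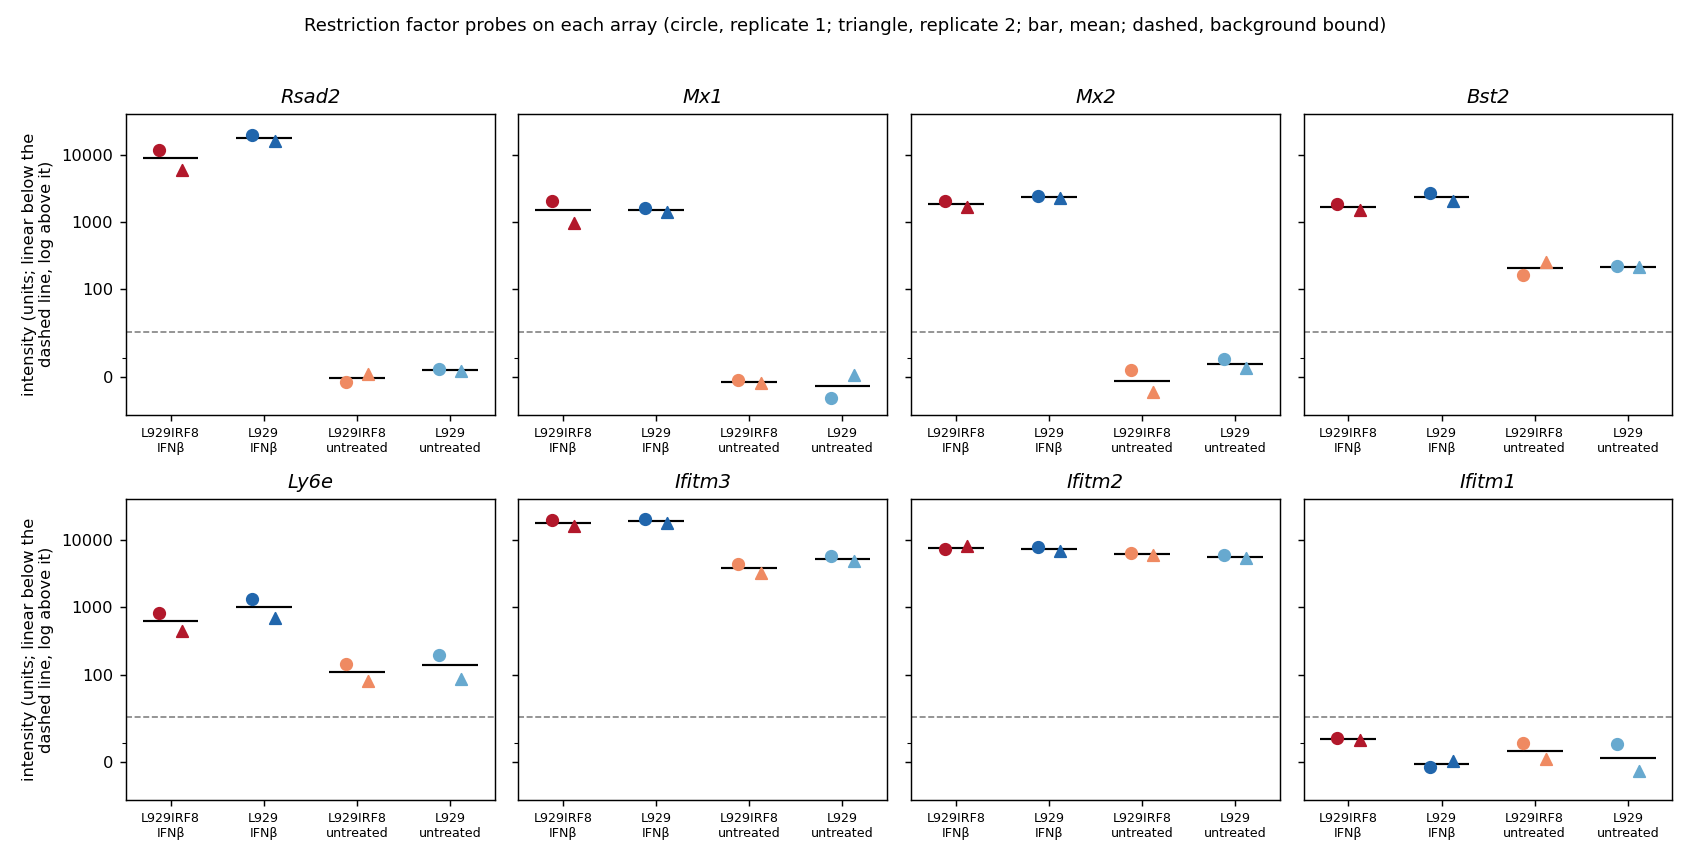
Intensity of the representative probe of each member (y axis, linear below the dashed background bound of 23.7 units and logarithmic above it) on the 2 arrays of each group (x axis), with circles for replicate 1, triangles for replicate 2 and bars for the mean. Rsad2, Mx1 and Mx2 reach 974.0 units or more on every IFNβ array and stay under the bound on every untreated one, Bst2, Ly6e and Ifitm3 start above the bound, Ifitm2 is bright in all groups, and Ifitm1 stays under the bound.

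Rsad2, which encodes viperin, is the first of the factors that act on replication. In L929IRF8 it read 11562.9 and 6016.7 units after IFNβ and -2.8 and 1.3 untreated. In L929 it read 19483.4 and 15819.8 after IFNβ and 4.1 and 3.1 untreated. All 4 treated arrays were bright and all 4 untreated arrays were under background. The rise was at least 352-fold in L929IRF8 (limma adjusted p = 0.00193) and at least 741-fold in L929 (adjusted p = 0.00131). Its exact size cannot be given, since the fitted log2 change was 8.97 in L929IRF8 and 9.81 in L929 with 16 added to the values, and 7.02 and 8.03 with 64 added. In bulk RNA, more responding cells and more RNA per cell cannot be told apart, here or below.

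Mx1 and Mx2 encode dynamin-like GTPases, of which mouse Mx1 acts in the nucleus against influenza viruses and Mx2 in the cytoplasm. Most laboratory mouse strains carry defective alleles of both, and the RefSeq annotation of the C57BL/6J genome lists both genes as transcribed pseudogenes. Both transcripts were measured as interferon-induced here. Mx1 read 2049.9 and 974.0 units in IFNβ-treated L929IRF8 and -1.8 and -3.6 in untreated L929IRF8. The L929 arrays read 1615.2 and 1387.2 after IFNβ and -11.1 and 0.9 untreated. The treated arrays of the lines overlap, and those of L929IRF8 lie farther apart than those of L929. Mx1 rose at least 59.6-fold in L929IRF8 (adjusted p = 0.00611) and at least 63.2-fold in L929 (adjusted p = 0.00495, limma).

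Mx2 read 2074.9 and 1653.4 units after IFNβ in L929IRF8 and 3.5 and -8.1 untreated. L929 gave 2432.9 and 2281.4 after IFNβ and 9.4 and 4.3 untreated. All 4 treated arrays were bright, and those of L929IRF8 lay below those of L929. Mx2 rose at least 78.2-fold in L929IRF8 (adjusted p = 0.000895) and at least 99.4-fold in L929 (adjusted p = 0.000763, limma). The calls of Rsad2, Mx1 and Mx2 held in both lines under all alternatives run, including the replicate block and each of the 8 arrays left out, with highest adjusted p-values of 0.0194, 0.0393 and 0.0113.

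Bst2, the tetherin gene, acts at release and was above background before treatment. It read 1835.8 and 1503.6 units in IFNβ-treated L929IRF8 and 161.9 and 258.8 in untreated L929IRF8. The L929 values were 2672.1 and 2045.5 after IFNβ and 219.6 and 214.3 untreated. The treated arrays were several-fold above the untreated ones in both lines, with no overlap. Bst2 rose 8.12-fold in L929IRF8 (log2 change 2.92 ± 0.26, SE here and below, adjusted p = 0.0221) and 10.8-fold in L929 (3.34 ± 0.26, adjusted p = 0.0131, limma). In L929IRF8 Bst2 no longer passed once replicate number was a block (adjusted p = 0.0596), nor without L929IRF8 IFNβ replicate 1 (0.0754) or 2 (0.0566), nor without either L929 IFNβ array (0.0676) or either untreated L929 array (0.0928). In L929 it was lost without either L929IRF8 IFNβ array (0.0506), L929 IFNβ replicate 1 (0.0514), or L929 untreated replicate 1 (0.0689) or 2 (0.0604).

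The 3 Ifitm genes are neighbours in 1 cluster on mouse chromosome 7, in the order Ifitm2, Ifitm1, Ifitm3. Ifitm3 encodes an endosomal membrane protein that blocks fusion of incoming enveloped viruses. It read 19483.4 and 15997.8 units in IFNβ-treated L929IRF8 and 4399.2 and 3232.4 in untreated L929IRF8. In L929 it read 20128.1 and 17605.3 after IFNβ and 5665.6 and 4900.8 untreated. Ifitm3 was bright in untreated cells of both lines and brighter still on all 4 treated arrays. Only 52 to 80 probes were brighter than it on the treated arrays, against 401 to 853 on the untreated ones, and the brightest value on each array was 31688.8 units. Saturation marks were not used here, so any compression of this signal near the top of the scale was not tested. The same holds for Rsad2. In IFNβ-treated L929, 55 and 81 probes were brighter than Rsad2, and in IFNβ-treated L929IRF8 132 and 368.

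Ifitm3 rose 4.68-fold in L929IRF8 (log2 change 2.22 ± 0.20, adjusted p = 0.0221) and 3.57-fold in L929 (1.83 ± 0.20, adjusted p = 0.033, limma). Set number against number, the ratios were 4.43 and 4.95 in L929IRF8 and 3.55 and 3.59 in L929, and with the replicate block both calls held (adjusted p = 0.00757 and 0.00925). In L929 the call was lost without any 1 of the 8 arrays, with adjusted p-values from 0.0525 to 0.12, and with values raised to the bound (0.0689). In L929IRF8 it was lost without L929IRF8 IFNβ replicate 1 (0.0696), either L929 IFNβ array (0.0767) or either untreated L929 array (0.0833).

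Ifitm2, whose protein also acts at endosomes in human cells, was bright in every group. It read 7236.3 and 8038.5 units after IFNβ in L929IRF8 and 6343.2 and 5904.2 untreated. In L929 it read 7912.5 and 6739.1 after IFNβ and 5875.9 and 5369.5 untreated. The treated arrays lay above the untreated arrays by a small margin in both lines. The ratio was 1.25 in L929IRF8 (log2 change 0.32, 95% interval 0.04 to 0.60, adjusted p = 0.438) and 1.30 in L929 (0.38, 0.10 to 0.66, adjusted p = 0.325, limma). Neither passed, although the unadjusted p-values were 0.0342 and 0.0187. The Ifitm2 intervals do not reach the Ifitm3 intervals of 1.71 to 2.74 in L929IRF8 and 1.32 to 2.35 in L929, but the difference between the probes' responses was not tested.

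Ifitm1, whose protein is found mainly at the plasma membrane, was not above background. Its brightest probe read 12.3 and 11.3 units in IFNβ-treated L929IRF8 and 10.1 and 1.4 in untreated L929IRF8. In L929 the same probe read -3.0 and 0.2 after IFNβ and 9.5 and -5.1 untreated. The other 2 probes lay between -6.2 and 8.7 units on the 8 arrays. All 24 readings of Ifitm1 were under the bound, so no fold is given, and transcripts that these probes do not cover would not be seen.

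Ly6e encodes a GPI-anchored surface protein that impairs entry of coronaviruses. It read 823.9 and 439.1 units in IFNβ-treated L929IRF8 and 142.2 and 80.6 in untreated L929IRF8. In L929 it read 1330.7 and 685.5 after IFNβ and 194.0 and 85.6 untreated. The treated arrays lay above the untreated arrays in both lines, and within each group replicate 1 was higher than replicate 2. The ratio was 5.62 in L929IRF8 (log2 change 2.32 ± 0.59, adjusted p = 0.279) and 7.41 in L929 (2.73 ± 0.59, adjusted p = 0.197, limma), so neither passed.

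Set number against number, the Ly6e ratios were 5.79 and 5.45 in L929IRF8 and 6.86 and 8.01 in L929. With the replicate block both differences passed (adjusted p = 0.0108 and 0.00656), and in L929 also among the probes above the bound alone (0.0208). Replicate 1 exceeded replicate 2 in 6 of the 7 members above the bound in IFNβ-treated L929IRF8 and in 7 of 7 in IFNβ-treated L929. The same order held in 73.3% and 76.7% of the 180 probes called higher with IFNβ in both lines, which include the members so called. It held in 46.8% and 46.9% of all probes above the bound. Untreated, it held in 5 of 7 members in L929IRF8 and in 6 of 7 in L929. Of the 180 probes 53.3% and 52.8% showed it untreated, and 48.0% and 49.5% of all probes above the bound. The part of this replicate difference in the Ly6e result was not tested beyond the block.

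**Figure D2:**
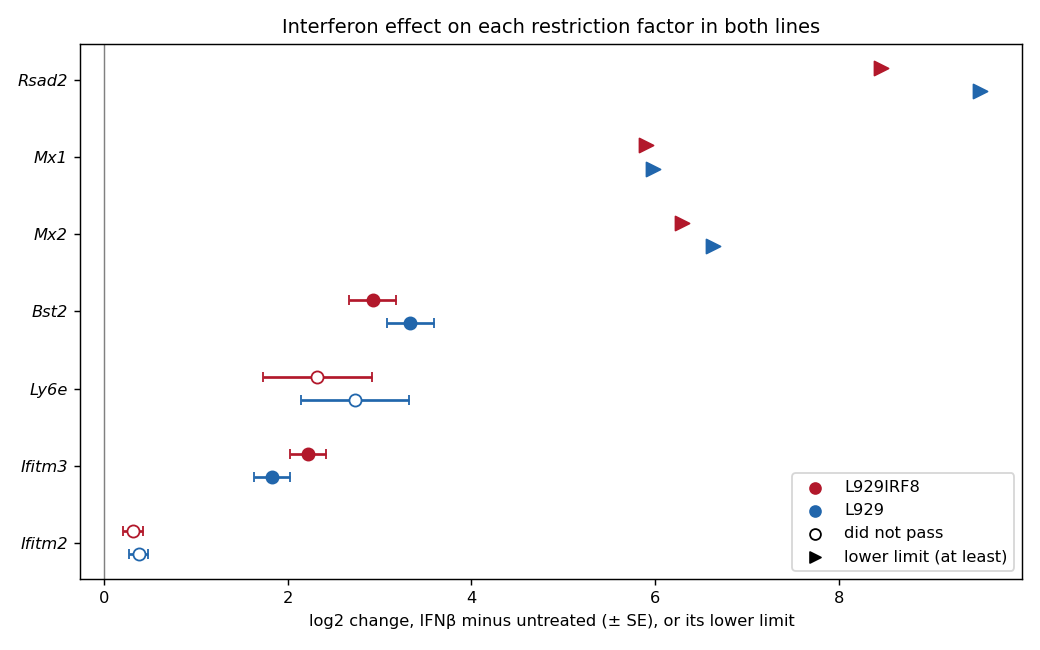
Log2 change of each member with IFNβ (x axis, IFNβ minus untreated, circles ± SE from limma, or triangles for a lower limit) in L929IRF8 (red, upper point of each pair) and L929 (blue, lower point), with open points for changes that did not pass. The lower limits of Rsad2, Mx1 and Mx2 lie at 5.90 or more in both lines, Bst2, Ly6e and Ifitm3 from 1.83 to 3.34, and Ifitm2 at 0.32 and 0.38, with Ly6e carrying the widest SE.

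The members that were dim before treatment had the larger interferon effects, apart from Ifitm1, which stayed dim, and Ly6e, which was dimmer than Bst2 and had the smaller effect. In all, 4 members were under the bound in untreated cells of both lines, and of these Rsad2, Mx1 and Mx2 rose at least 59.6-fold. The 4 members above the bound in untreated cells, from dim to bright in both lines, were Ly6e, Bst2, Ifitm3 and Ifitm2. Their untreated means in L929IRF8 were 111.4 ± 43.6, 210.4 ± 68.5, 3816 ± 825 and 6124 ± 310 units (SD, n = 2). In untreated L929 they were 139.8 ± 76.7, 217 ± 3.75, 5283 ± 541 and 5623 ± 358 units (SD, n = 2). Brightness also depends on each probe's own sequence, so this is an order of signals and not of transcript amounts. Each change is computed from the same untreated readings, so a low untreated value raises it by construction. Whether the relation goes beyond that was not tested.

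Rsad2, Mx1 and Mx2 have only lower limits, of 5.90 or more on the log2 scale, and so no order among themselves. Below them the log2 changes came in the order Bst2, Ly6e, Ifitm3, Ifitm2 in both lines. Of these neighbours, Bst2 and Ly6e have overlapping 95% intervals in both lines, as do Ly6e and Ifitm3. In signal gained on its own probe, Ifitm3 gained 13925 units in L929IRF8 and 13584 in L929, close to the same amount in both lines. Rsad2 gained 8791 units in L929IRF8 and 17648 in L929, and Bst2 gained 1459 and 2142. Ifitm2 gained 1514 units in L929IRF8 and 1703 in L929. Any effect of compression on the gains of Ifitm3 and Rsad2 was not tested.

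**Figure D3:**
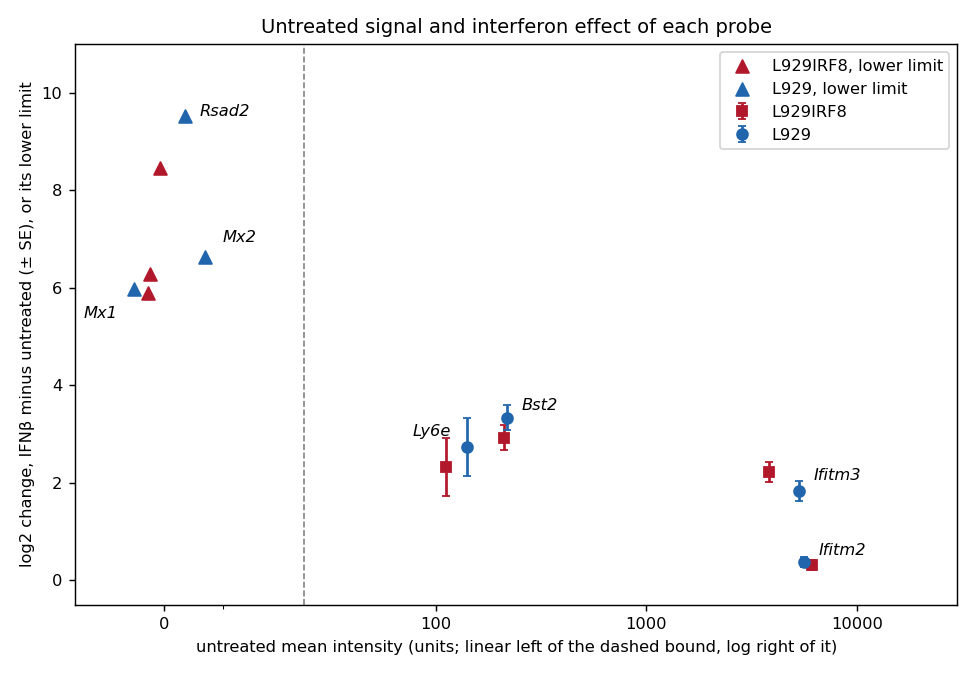
Log2 change with IFNβ (y axis, ± SE, or upward triangles for a lower limit) against the mean untreated intensity (x axis, linear left of the dashed bound of 23.7 units and logarithmic right of it) of 7 members in L929IRF8 (squares) and L929 (circles). The 3 members under the bound have lower limits of 5.90 to 9.53, while Ifitm2, the brightest before treatment, changed by 0.32 in L929IRF8 and 0.38 in L929.

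The series title names the comparison of the lines after IFNβ. None of the 8 members was called in it, and 0.00389% of all probes were (limma, 1 probe). At the unadjusted level 2 members had p under 0.05, Rsad2 and Ifitm1, and Ifitm1 was under the bound in both lines. The share of all probes at that level is not given, so this count and those below have no reference. Of the 7 members above the bound 6 had lower means on the log2 scale in L929IRF8, with a median difference of -0.34, against a median of 0.00 over all probes above the bound. The 180 probes called higher with IFNβ in both lines had a median difference of -0.21, with 77.8% of them lower in L929IRF8. The 2 arrays of L929IRF8 lay below the 2 of L929 for Rsad2, Mx2 and Bst2, 3 of 7. The shares were 13.3% of all probes above the bound and 50.6% of those 180 induced probes, and the members' count is close to the latter. Those 180 include Rsad2, Mx1, Mx2, Bst2 and Ifitm3 themselves, so they are not a separate reference for the members. Arrays of L929IRF8 lay above those of L929 for 0 of the 7, against 12.2% of all probes above the bound.

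Among the members Rsad2 had the largest difference after IFNβ, 2.10-fold lower in L929IRF8 by the values given above (log2 difference -1.07, 95% interval -1.93 to -0.22, adjusted p = 0.843, limma). It did not pass, and over all alternatives its adjusted p was 0.0711 to 1. The difference was -1.54 without L929IRF8 IFNβ replicate 1 and -0.60 without replicate 2. Set number against number, the ratios were 0.593 and 0.380, lower in L929IRF8 both times. Any compression of the Rsad2 signal near the top of the scale was not tested.

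Ly6e read 1.59-fold lower in L929IRF8 (log2 difference -0.65, interval -2.20 to 0.90), Bst2 1.41-fold lower (-0.49, -1.17 to 0.19) and Mx2 1.27-fold lower (-0.34, -0.82 to 0.13). Number against number the ratio was 0.619 and 0.641 for Ly6e, 0.687 and 0.735 for Bst2 and 0.853 and 0.725 for Mx2. None of these passed, with limma adjusted p-values of 1. With the replicate block the adjusted p-values were 0.381, 0.854 and 0.521. The values lean to lower levels in L929IRF8, and these intervals, from the fit without the block, also allow no difference.

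The other 3 members above the bound had the smallest fitted differences between the lines after IFNβ, and none of them passed either. The log2 difference was -0.08 for Mx1 (interval -1.01 to 0.85), -0.09 for Ifitm3 (-0.61 to 0.42) and 0.06 for Ifitm2 (-0.22 to 0.34). Their treated arrays overlap between the lines, as those of Ly6e do. Each of these 3 signs turned when single arrays were left out. The intervals of Ifitm2 and Ifitm3 exclude a difference of 2-fold in either direction, while that of Mx1 does not.

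Without IFNβ none of the members was called between the lines either, with 0.0156% of all probes called (limma, 4 probes), and 0 members had an unadjusted p under 0.05. Ifitm3 was 1.40-fold lower in untreated L929IRF8 (log2 difference -0.48, interval -0.996 to 0.03, adjusted p = 0.94). Its arrays did not overlap between the lines, as in 14.5% of probes above the bound, and the number-against-number ratios were 0.776 and 0.660. Ifitm2 was 1.09-fold higher in untreated L929IRF8 (0.12, -0.16 to 0.40), also with no overlap, as in 14.8% of those probes, and Bst2 and Ly6e overlapped between the lines. Rsad2, Mx1, Mx2 and Ifitm1 were under the bound in both untreated groups, so they give no comparison.

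The interaction, the IFNβ effect in L929IRF8 minus that in L929, called 0 of the 8 members (limma, 0.00389% of all probes) and 0 had an unadjusted p under 0.05. For Rsad2, Mx1 and Mx2 it has no size of its own, because their untreated values were under the bound in both lines. It was 0.39 for Ifitm3 (interval -0.34 to 1.12). The Ifitm3 value is positive because its untreated signal was lower in L929IRF8 while its treated signal was about equal. The values were -0.41 for both Bst2 (-1.37 to 0.55) and Ly6e (-2.61 to 1.78). For Ifitm2 it was -0.06 (-0.46 to 0.34). The signs of Ifitm2 and Ly6e turned when single arrays were left out.

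**Figure D4:**
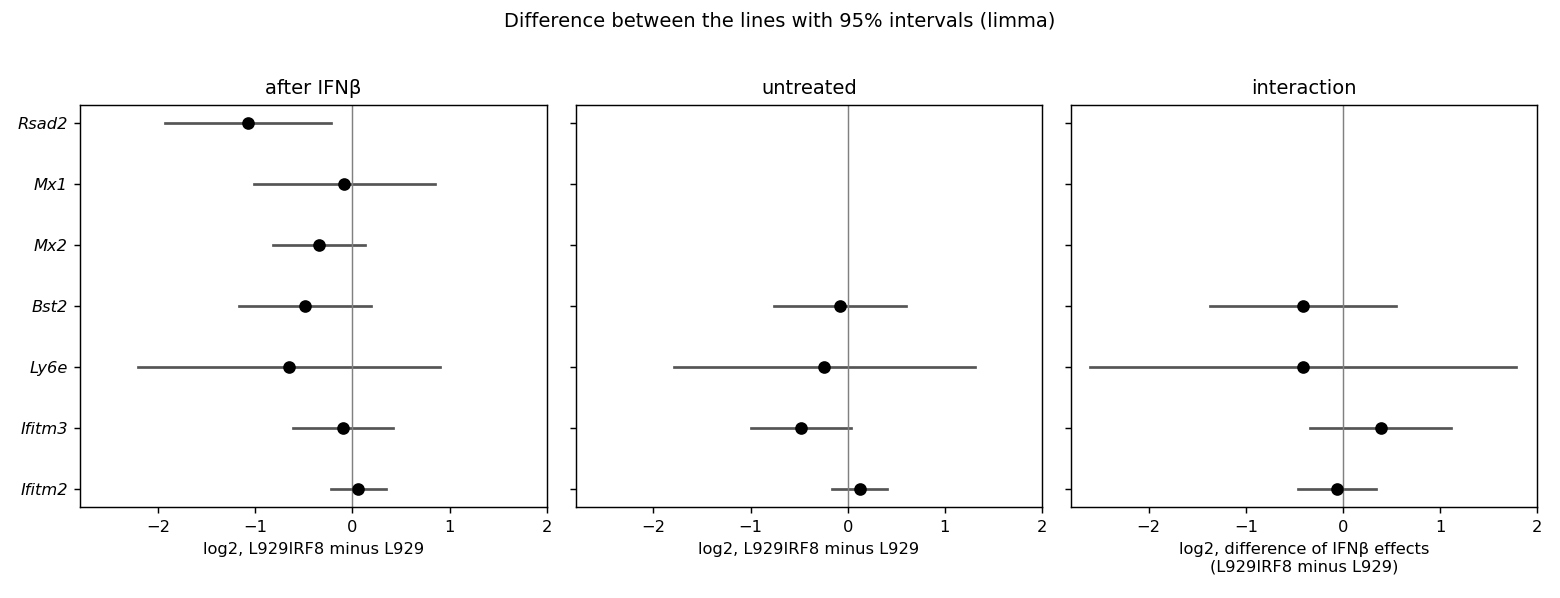
Log2 difference L929IRF8 minus L929 after IFNβ (left), untreated (middle, members above the bound alone) and the difference of the IFNβ effects (right, the same members), with 95% intervals from limma. After IFNβ the interval of Rsad2, -1.93 to -0.22, lies below 0 before adjustment, and the other intervals include 0.

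The genes around and upstream of the members give the setting. From the interferon receptor and ISGF3, 6 genes were analysed. Stat2 and Irf9, which encode ISGF3 subunits, rose in both lines, by 3.59 and 2.92 on the log2 scale in L929IRF8 and by 4.16 and 3.22 in L929 (limma adjusted p from 0.00109 to 0.0128). The other 4 did not pass, and the list's median was 0.10 in L929IRF8 and 0.02 in L929. Among 24 other restriction factors and antiviral effectors on the array, 11 rose in L929IRF8 and 12 in L929, with 0 lower, and medians of 1.31 and 1.54 (1.51 and 1.63 with values raised to the bound). By fitted change Ifit3, Oasl2, Isg15 and Oas2 led the list. Untreated means of Oasl2 and Oas2 were well under the bound in both lines, and those of Ifit3 and Isg15 were near it. Oasl2 rose at least 244-fold in L929IRF8 and at least 280-fold in L929, and Oas2 at least 27.1-fold and at least 102-fold. Ifit3 rose at least 508-fold in L929IRF8, and Isg15 rose 295-fold in L929, while in the other line 1 of their untreated arrays was under the bound and no fold is given. None of these 24 was called between the lines, and the smallest p after IFNβ was that of the exonuclease gene Isg20 (log2 difference -1.16, adjusted p = 0.225).

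Proteins known to modify or bind the members were measured through 10 genes, among them palmitoyltransferase and ubiquitin ligase genes of Ifitm3 and enzymes bound by viperin. None passed with IFNβ, with medians of 0.06 in L929IRF8 and -0.13 in L929. The smallest p was that of Zdhhc20 in L929IRF8 (29.8 units after IFNβ and 47.0 untreated, adjusted p = 0.788) and of Cmpk2 in L929 (18.4 and 1.05 units, adjusted p = 0.321). Of 15 relatives of the Ifitm, Ly6 and dynamin families on the array 4 exceeded the bound in the mean. None passed in L929IRF8, and 1 passed in L929, Ly6m, with both groups under the bound (2.50 units after IFNβ and -11.1 untreated). Ly6c1, named after its values were seen, had 4858 units after IFNβ and 1375 untreated in L929IRF8, and 5002 and 1389 in L929. Its arrays did not overlap, and like Ly6e it did not pass (3.49-fold, limma adjusted p = 0.137, and 3.59-fold, 0.123). Of 8 housekeeping genes none passed, with medians of -0.06 in L929IRF8 and -0.05 in L929.

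Few of the members' neighbours in the genome were bright enough to be measured. The nearest protein-coding genes on either side that are not members number 11, of which 10 were matched on the array. With IFNβ 0 of these passed in L929IRF8 and 1 in L929, Ly6m beside Ly6e, under the bound as given above. Only Mvb12a, next to Bst2, exceeded the bound on all arrays of a group. It read 1513 units after IFNβ and 1366 untreated in L929IRF8, and 1594 and 1345 in L929, and did not pass (limma adjusted p = 0.655 and 0.336). Cmpk2, next to Rsad2, Ifitm5 next to Ifitm2, and Ly6i next to Ly6e had both means under the bound in both lines. Ifitm6, next to Ifitm3, had means of 19.9 units after IFNβ and 2.65 untreated in L929IRF8, and 26.1 and 5.70 in L929.

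For each member that rose, the 2 genes with the most similar profile were found by the root-mean-square difference of centred log2 values over the 8 arrays. For Rsad2 these were Ifit3 (0.379) and Usp18 (0.472), which encode an RNA-binding antiviral protein and the protease that removes ISG15. For Mx1 they were Csprs (0.249) and Mx2 (0.288), and for Mx2 they were Parp14 (0.234) and Mx1. The Mx genes were thus the second nearest to each other. For Bst2 the nearest were Tor3a (0.226) and Sp100 (0.228), a nuclear body gene, and for Ifitm3 they were Lrp4 (0.198) and Tapbp (0.210), which encodes the peptide-loading factor tapasin. These are likenesses of profiles across 4 groups, which any probe with a like rise would share. For Rsad2, Mx1 and Mx2 they include untreated readings under the bound. The match of Bst2 with Sp100 does too, since Sp100 had untreated means of -1.0 units in L929IRF8 and 0.35 in L929.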

How the data were processed

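The deposited intensities are the authors' processed values for 8 arrays, and their tools are not given in the sources used here. The values show that they had been background-subtracted (28.1% to 28.3% of probes below 0 on an array) and quantile normalized (sorted values differ by at most 1.7 units), so they were not normalized again. Probes were named from the platform annotation, and the representative probe of a gene has the highest mean log2 value. Tests used log2(value + 16) with negative values at 0, a scale that understates changes of dim probes. A model with 4 group coefficients was fitted with limma 3.58.1 (R 4.3.3) to all 25697 probes of the 8 arrays, with Benjamini-Hochberg adjustment and a threshold of 0.05. The fit has 4 residual degrees of freedom. The number of arrays limits the precision, and an exact two-sided permutation test of 2 against 2 cannot go below 0.333. Folds are ratios of geometric means with values under 23.7 raised to it, and ± is the SD over arrays or, for log2 changes, the SE. The procedure was tested on simulated data with noise drawn independently for each array. That test therefore does not cover the shared deviation of same-numbered arrays given next.

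Same-numbered arrays deviated together from their group means, with correlations of 0.441 to 0.523 for the 6 pairs of groups over 11411 probes. The replicate number was therefore taken to pair arrays, though the labels do not say what it marks. Results are given with it as a block where that changes a call. The fit with 4 group coefficients has no block, so its SEs and intervals, and the figures, do not use this pairing. The other alternatives were another pseudocount (64), values raised to the bound, probes above the bound, median centring, an intensity trend and leaving out each array. Named genes are all members, at most 4 called genes in each direction (or the smallest p) of each list, and the 2 nearest profiles. The neighbouring genes and the number-against-number ratios were added after the values were seen. The members and lists were chosen with earlier results of these data known.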

Additional observations from a re-analysis of the deposited data

How the results depend on the processing

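Of 448 recomputed log2 changes of single members (32 results), 396 kept their direction and their side of the threshold, 26 lost a call, 3 gained one and 23 changed sign, all 23 without a call. The number of member probes called with IFNβ was 3 to 4 in L929 and 3 to 5 in L929IRF8 when 1 array was left out, against 5 in each, and the remaining degrees of freedom are fewer in those fits. Without L929IRF8 IFNβ replicate 2 the 5 in L929IRF8 lacked Bst2 and held an Ifitm1 probe under the bound (adjusted p = 0.032). With the replicate block 6 were called in L929 and 5 in L929IRF8, Ly6e being gained in both and Bst2 lost in L929IRF8, and the block changed no other member's call. Between the lines after IFNβ the count was 0 to 1 with 1 array left out. That call was the same Ifitm1 probe, without L929IRF8 IFNβ replicate 2 (log2 difference 0.24). Its reading of 2.9 units was the only one above 0. The negative readings count as 0 in the fit, so they showed no spread. Among differences between the lines, the sign turned with 1 array left out after IFNβ for Mx1 (-0.61 to 0.45), Ifitm2 (-0.053 to 0.18) and Ifitm3 (-0.23 to 0.0496), and in untreated cells for Bst2 (-0.39 to 0.24) and Ly6e (-0.76 to 0.28). The interaction turned likewise for Mx1 (-0.57 to 0.49), Mx2 (-0.14 to 0.18), Ifitm2 (-0.18 to 0.0548) and Ly6e (-0.94 to 0.11). For Mx2 it was also -0.23 with a pseudocount of 64 and -0.35 with values raised to the bound, and the interaction values of Mx1 and Mx2 rest on untreated readings under the bound. Signals under 23.7 units set the limit for Rsad2, Mx1, Mx2 and Ifitm1 in untreated cells.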
